A study of Drosophila melanogaster with 12 samples.

Results

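The 38 genes described here make, order, bind, deacetylate or digest chitin, or belong to the chitinase-like Idgf family, in *Drosophila melanogaster*. They were taken by gene symbol, from a table of 14001 genes, and all 38 were found: 2 chitin synthases, 3 genes of precursor supply and fibre assembly, 10 chitinases, 5 deacetylases, 12 chitin-binding proteins and 6 Idgf genes. For 3 of them the deposited symbol differed from the current one (CS-2 for Chs2, Cht3 for Cht10, and a blank entry for Idgf6) and they were matched by FlyBase identifier. RNA of whole bodies was sequenced in 4 groups of 3 libraries, which were adults of a strain resistant to avermectins, adults of a sensitive strain that the labels call wild type, third-instar larvae of the resistant strain, and third-instar larvae of the sensitive strain. Avermectins are insecticides whose target is a chloride channel gated by glutamate. The labels give neither the origin or genetic basis of the resistance, nor any exposure of the sampled animals, nor their sex and exact age. They also do not say that replicates were separate cultures, so a p-value here reflects how much the libraries of a group differed, and that variation may be technical.

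Chitin, a polymer of N-acetylglucosamine, is extruded at the apical membrane of epidermal, tracheal and gut cells by chitin synthases. It forms the fibrous part of the cuticle and of the tracheal lining, and of the peritrophic matrix, the sheet that lines the midgut. Accessory proteins align the fibres, deacetylases modify them and binding proteins join them to other matrix proteins, while at each moult chitinases and hexosaminidases digest the old layer. Idgf proteins share the chitinase fold but lack catalytic activity, and are secreted growth factors.

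The libraries held an estimated 11020000 to 12600000 reads, and values are FPKM, which are scaled to transcript length and library total. Strain and stage effects were tested with limma on log2(FPKM + 1), so fold changes understate those of low genes. The median log2 fold change over all genes tested was 0.49 in resistant against sensitive larvae and 0.02 in adults, and median-of-ratios scaling brought these to 0.02 and -0.11. "Rose", "fell", "higher in both fits" and "lower in both fits" are therefore written only of genes that passed an FDR of 0.05 in the same direction without and with that scaling. Sizes of a rise or fall are log2 differences, each with its standard error, from the fit without scaling. Statements that groups did or did not overlap describe the unscaled FPKM. The share of all genes without overlap is not given here, so such statements are not further support for a call. Every marker gene of the tissues listed further on was above 0 in some of these whole-body libraries, with Sgs4, a salivary glue gene, at 0 in 10 of 12. Among adults, the summed FPKM of 7 male genes was 871.43 to 1441.3 in the resistant strain and 305.32 to 680.28 in the sensitive strain. That of 5 yolk and eggshell genes was 8481.02 to 11146.79 in resistant and 14920.34 to 17182.76 in sensitive adults, so neither sum overlapped between the strains. The lower sum came from the yolk genes Yp1, Yp2 and Yp3, while the eggshell genes overlapped. Vm26Aa was at 1462.17, 1750.04 and 944.47 FPKM in resistant and 1233.28, 1204.37 and 942.79 FPKM in sensitive adults. Vm26Ab was at 1215.86, 1177.83 and 878.56 FPKM in resistant and 1063.03, 726.54 and 709.4 FPKM in sensitive adults.

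**Figure D1:**
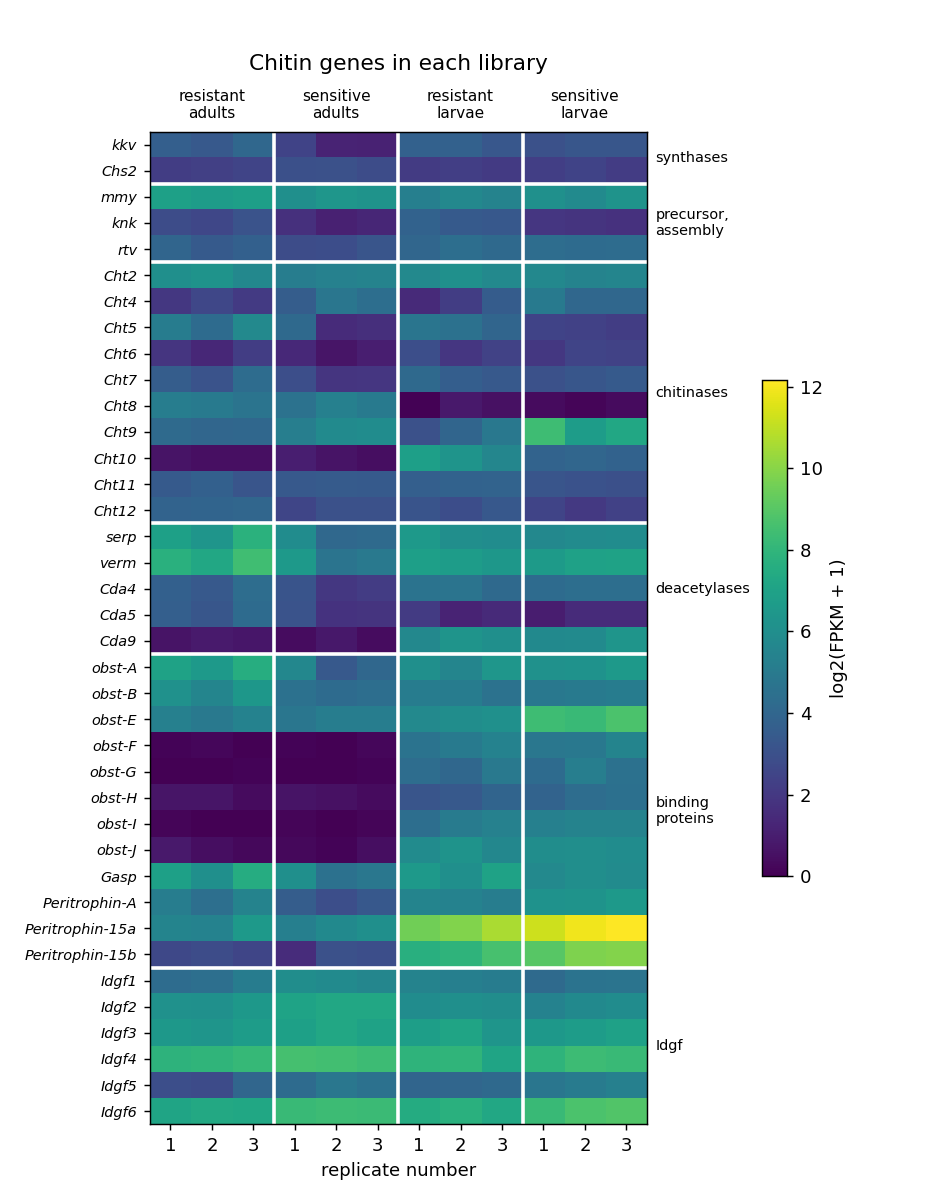
Level of each of the 38 genes as log2(FPKM + 1), by library (columns, 3 replicates in each of 4 groups) and role (rows). Cda9 and obst-F to obst-J were bright in larvae and near 0 in adults, and Cht8 was the reverse.

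In adults, 11 of the 31 members tested rose in the resistant strain and 6 fell. Those that rose were kkv, knk, Cht7, Cht12, serp, verm, Cda4, Cda5, obst-A, obst-B and Peritrophin-A. Those that fell were Cht4, Cht9 and the Idgf genes Idgf1, Idgf2, Idgf5 and Idgf6. Over all 11612 genes tested, 10.6% were higher and 3.75% were lower in both fits. Without scaling, 13 members were higher, against 15.9% of all genes, and 6 were lower, against 3.95%; the 2 added were Cht5 and Gasp. The median log2 fold change of the members was 0.68. The remaining 7 members (Cht10, Cda9 and obst-F to obst-J) did not reach 1 FPKM in 3 adult libraries and were not tested there.

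In larvae the balance of the calls was the other way, with 3 of 37 members higher and 10 lower in the resistant strain in both fits. The 3 were knk, Cht5 and Cht10. The 10 were mmy, Cht4, Cht9, obst-E, obst-H, Peritrophin-A, Peritrophin-15a, Peritrophin-15b, Idgf5 and Idgf6. Over all 11055 genes tested, 11.0% were higher and 9.82% were lower in both fits. Without scaling the members' counts were 7 higher and 10 lower, against 48.8% and 9.84% of all genes, and with scaling 3 higher and 18 lower, against 11.0% and 19.2%. The members' median was -0.04 without and -0.60 with scaling, below the 0.49 and 0.02 of all genes. Cht8, under 1 FPKM in every larval library, was the member not tested.

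**Figure D2:**
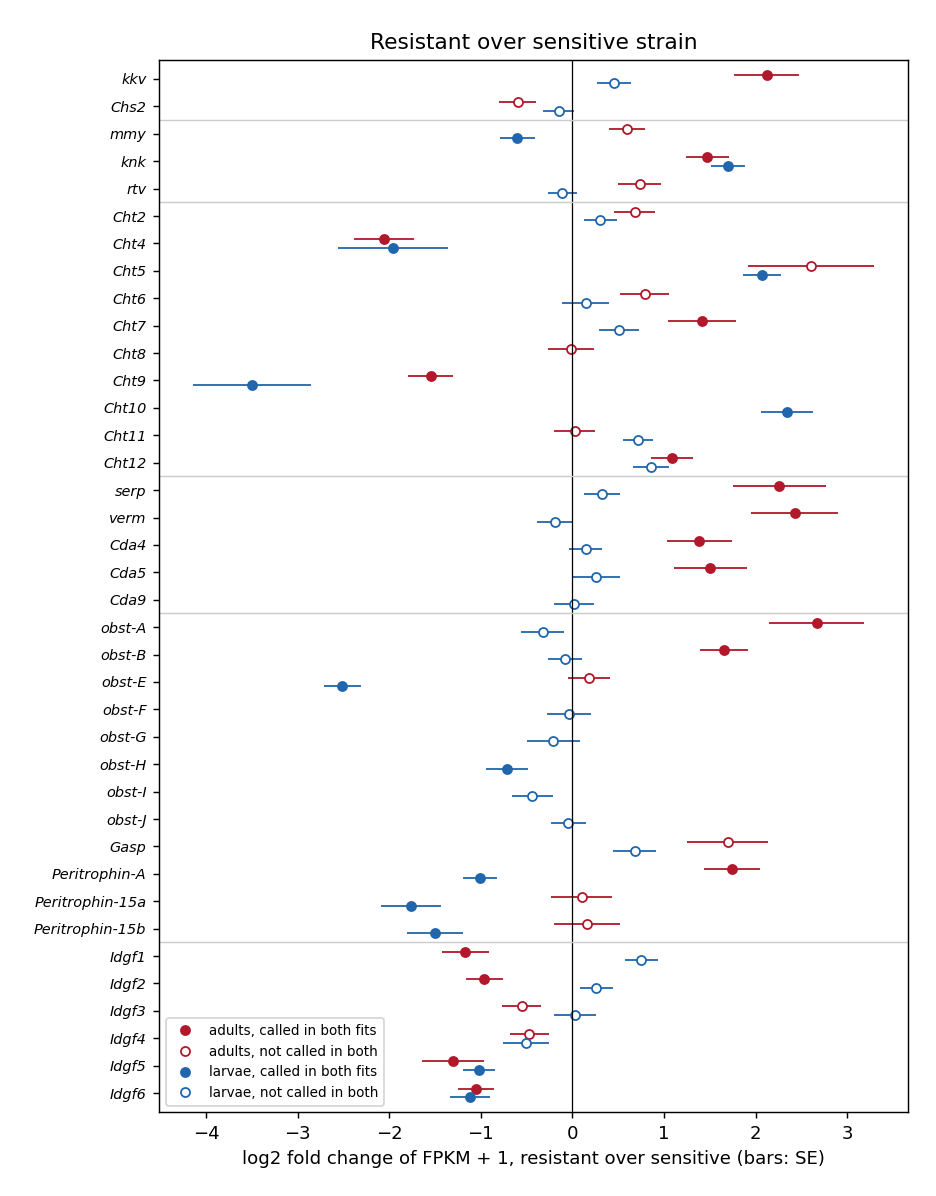
Log2 fold change of FPKM + 1 for resistant over sensitive animals, with its standard error, for adults (red) and larvae (blue), and filled where the gene was called without and with scaling. obst-A, verm, serp and kkv stand at 2.12 to 2.66 in adults and between -0.33 and 0.45 in larvae, while Cht4 and Cht9 lie below 0 in both stages.

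The 2 chitin synthases differed in their response. kkv (3R:5378093-5392866), the synthase of epidermis and trachea, was at 11.78, 9.5 and 15.97 FPKM in resistant adults, against 4.38, 1.31 and 1.23 FPKM in sensitive adults. Every resistant adult library was above every sensitive one, and the first sensitive library was 3.45 times the mean of the other 2. kkv rose by 2.12 ± 0.35 on the log2 scale (SE; adjusted p 0.006472, limma). In larvae it was at 12.86, 12.76 and 8.76 FPKM in the resistant and 7.16, 8.5 and 8.41 FPKM in the sensitive strain, a log2 difference of 0.45 ± 0.19 that did not pass (adjusted p 0.05639, limma). The low group of the 4 was thus the sensitive adults. kkv overlaps CG14668 on the same strand, and how reads of that overlap were divided is not stated.

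Chs2 (3L:21962401-21969964), the synthase of the midgut, was at 3.67, 3.95 and 4.56 FPKM in resistant adults, against 6.85, 7.03 and 6.07 FPKM in sensitive adults. These groups did not overlap, with the resistant strain the lower, but the difference of -0.60 ± 0.20 passed only after scaling (adjusted p 0.06746 without and 0.0493 with it, limma). In larvae Chs2 was at 3.28, 3.81 and 3.13 FPKM in the resistant and 3.79, 4.45 and 3.47 FPKM in the sensitive strain, and these overlapped. As a ratio within each library, kkv was 2.41 to 3.5 times Chs2 in resistant adults and 0.19 to 0.64 times Chs2 in sensitive adults. In larvae the ratio was 2.8 to 3.92 in the resistant and 1.89 to 2.42 in the sensitive strain. kkv was therefore the more abundant synthase transcript per length in 3 groups and Chs2 in the sensitive adults.

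Of the assembly genes, knk rose in the resistant strain at both stages. Knk is a membrane-associated protein needed to organise chitin fibres, and in the beetle *Tribolium* it shields new chitin from chitinases. knk (3R:10122365-10125664) was at 6.08, 4.94 and 7.7 FPKM in resistant adults, against 2.21, 1.16 and 1.48 FPKM in sensitive adults. Its larval levels were 13.09, 9.78 and 9.1 FPKM in the resistant and 2.82, 2.54 and 2.3 FPKM in the sensitive strain. Neither stage showed an overlap, and knk rose by 1.47 ± 0.23 in adults (adjusted p 0.005927, limma) and by 1.70 ± 0.18 in larvae (adjusted p 0.0002146, limma). It was the only one of the 30 members tested at both stages to be higher in both fits in both.

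mmy encodes the enzyme that makes UDP-N-acetylglucosamine, the substrate of the synthases. It fell in resistant larvae, where it was at 36.57, 50.4 and 43.24 FPKM, against 69.0, 54.94 and 75.57 FPKM in sensitive larvae (log2 fold change -0.60 ± 0.19, adjusted p 0.01999, limma). In adults it was at 119.49, 106.19 and 114.59 FPKM in the resistant and 66.27, 83.88 and 74.28 FPKM in the sensitive strain, a log2 difference of 0.60 ± 0.20 that did not pass (adjusted p 0.06051, limma). Neither stage's groups overlapped, and the strain effects at the 2 stages differed by 1.203 ± 0.26 (adjusted p 0.005486 for the interaction, limma). rtv, a small membrane protein that acts with Knk, was called in neither stage in both fits.

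Among the 10 chitinases, the members moved in both directions. Cht5 and Cht10 encode enzymes that in *Tribolium* digest old cuticle at the moult. Cht5 (3R:13767549-13770732) was at 25.17, 22.13 and 14.53 FPKM in resistant larvae, against 4.45, 4.06 and 3.6 FPKM in sensitive larvae, and Cht10 (2L:22999574-23025915) was at 114.83, 78.38 and 47.23 FPKM in resistant larvae, against 13.86, 15.44 and 13.02 FPKM in sensitive larvae. The larval groups did not overlap for either gene. In resistant larvae Cht5 rose by 2.07 ± 0.21 (adjusted p 0.0001527, limma) and Cht10 by 2.34 ± 0.28 (adjusted p 0.000531, limma). The ratio of Cht10 to Cht5 spanned 3.25 to 4.56 in resistant and 3.11 to 3.8 in sensitive larvae, while the levels of both genes differed several-fold between the strains.

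In adults the pair came apart. Cht10 was low, at 0.55, 0.41 and 0.43 FPKM in the resistant and 1.04, 0.57 and 0.36 FPKM in the sensitive strain, and was not tested. Cht5 was at 33.51, 18.26 and 51.65 FPKM in resistant adults, against 16.83, 1.78 and 2.15 FPKM in sensitive adults. The groups did not overlap, but the first sensitive library stood 8.56 times above the mean of the other 2, the widest such gap among the members tested. The Cht5 difference of 2.60 ± 0.69 passed without scaling and not with it (adjusted p 0.02957 and 0.08292, limma).

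Cht4 and Cht9 fell in the resistant strain at both stages. They lie next to each other, 904 bases apart, in a run of 4 chitinase genes with Cht8 and Cht12 (2R:21061646-21069286). Cht9 was at 17.62, 15.33 and 15.95 FPKM in resistant adults, against 35.74, 56.07 and 60.54 FPKM in sensitive adults (log2 fold change -1.55 ± 0.25, adjusted p 0.00597, limma). In larvae Cht9 was at 7.2, 14.79 and 28.38 FPKM in the resistant and 334.47, 103.34 and 154.29 FPKM in the sensitive strain (-3.49 ± 0.65, adjusted p 0.007723, limma). Cht9 had no overlap at either stage, and its larval difference was the largest of any member.

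Cht4 was at 2.87, 4.96 and 3.2 FPKM in resistant adults, against 11.03, 26.31 and 20.17 FPKM in sensitive adults (-2.06 ± 0.33, adjusted p 0.005905, limma). In larvae it was at 1.75, 3.67 and 10.8 FPKM in the resistant and 30.54, 15.79 and 15.8 FPKM in the sensitive strain (-1.96 ± 0.60, adjusted p 0.03697, limma). The groups stayed apart at both stages, but the larval call was lost in 5 of the 6 fits that each omitted 1 library. The neighbours did not share this pattern. Cht8 was at 34.35, 31.6 and 24.57 FPKM in resistant adults and 22.74, 38 and 31.88 FPKM in sensitive adults, which overlapped, and Cht12 rose in resistant adults (1.08 ± 0.23, adjusted p 0.01227, limma). Cht8 and Cht12 overlap at their ends on opposite strands. The sources used here do not state whether counting was stranded, so reads of the overlap cannot be assigned with certainty, and how reads shared by similar chitinase genes were divided is likewise not stated.

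Of the other chitinases, Cht7 rose in resistant adults by 1.41 ± 0.37 (adjusted p 0.02533, limma), with 12.46 ± 5.65 FPKM in the resistant and 4.07 ± 2.25 FPKM in the sensitive strain (SD, n = 3 each). Cht2, the most abundant chitinase in resistant adults at 63.98 ± 13.25 FPKM (39.11 ± 4.20 FPKM in sensitive adults), passed at neither stage, and neither did Cht6. In larvae Cht11 and Cht12 passed only without scaling, where they were higher in the resistant strain by 0.72 ± 0.16 and 0.86 ± 0.20 (adjusted p 0.004084 and 0.004791, limma).

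**Figure D3:**
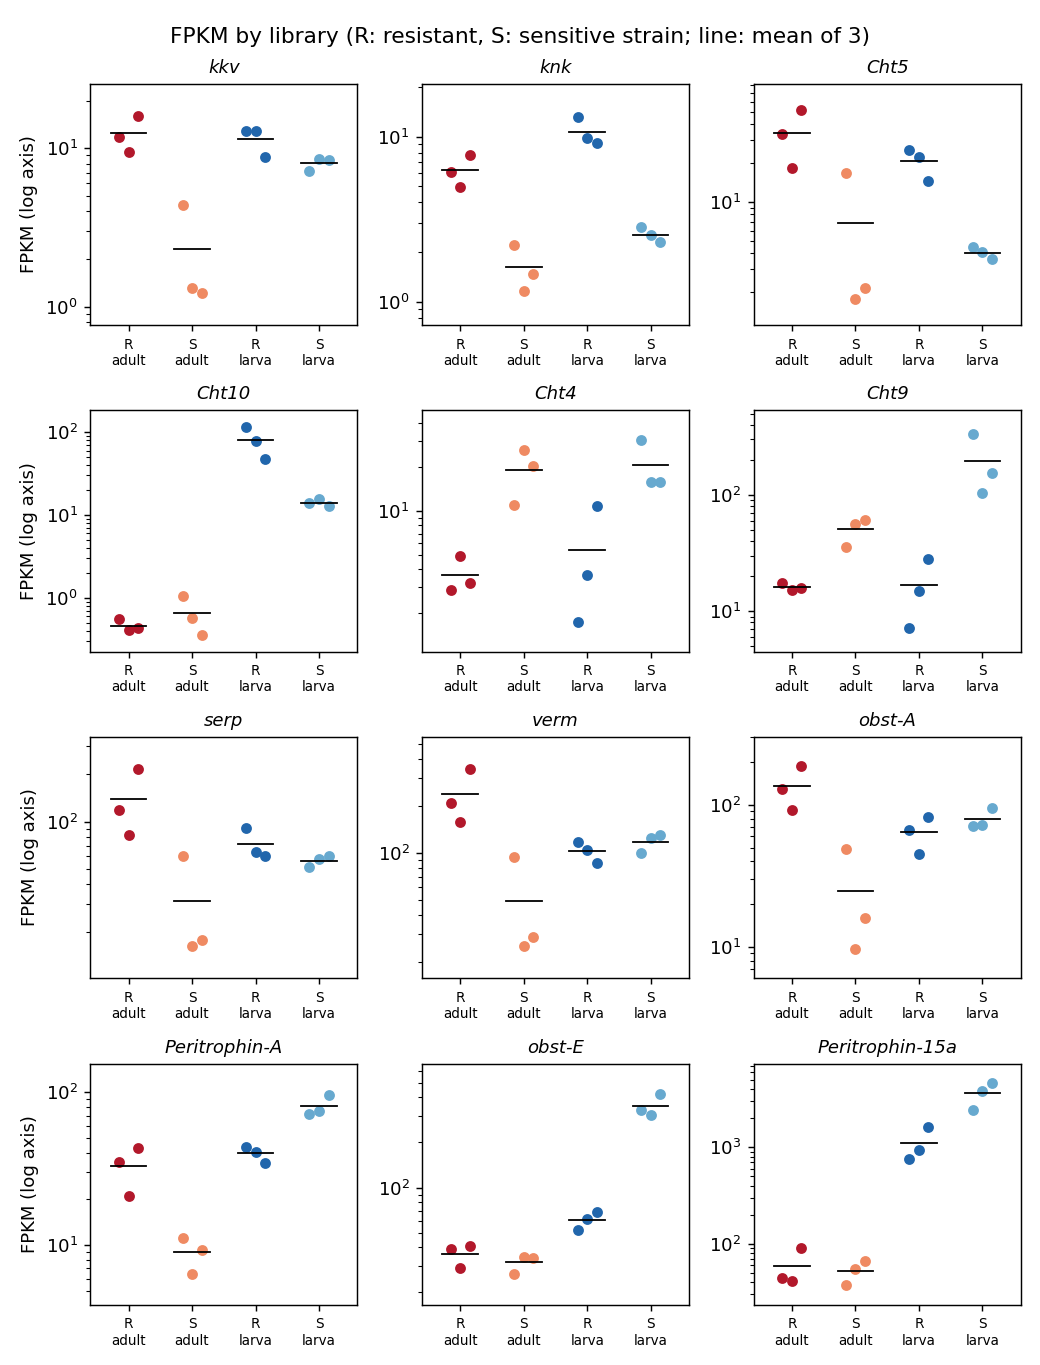
FPKM on a log axis in every library of 12 members, by group, with the mean of 3 as a line. In kkv, Cht5, serp, verm and obst-A the sensitive adults spread over several-fold, with 1 library close to the resistant adults, whereas knk, obst-E and Peritrophin-A separate the larval strains tightly.

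All 4 deacetylases tested in adults rose in the resistant strain, against 10.6% of all genes. None of the 5 tested in larvae was called in both fits (limma, 0 at an unadjusted p under 0.05, and verm lower after scaling only). serp and verm, whose products deacetylate cuticular and tracheal chitin and limit tracheal tube length, lie 5716 bases apart on 3L. serp was at 119.09, 81.65 and 215.6 FPKM in resistant adults, against 60.17, 16.17 and 17.71 FPKM in sensitive adults. verm was at 208.24, 156.59 and 344.9 FPKM in resistant adults, against 93.4, 25.12 and 29.0 FPKM in sensitive adults. For both genes the lowest resistant library was above the highest sensitive one, which was again the first sensitive replicate. serp rose by 2.26 ± 0.51 (adjusted p 0.01679, limma) and verm by 2.42 ± 0.48 (adjusted p 0.01034, limma). The serp call was lost in 2 of the 6 fits that each omitted 1 library, and the verm call in 0.

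In larvae the strain groups lay close together for the same pair. serp was at 90.84, 64.13 and 60.37 FPKM in the resistant and 51.04, 58.02 and 60.05 FPKM in the sensitive strain (0.32 ± 0.20, adjusted p 0.1701, limma). verm was at 117.29, 104.3 and 86.33 FPKM in the resistant and 99.0, 124.13 and 128.81 FPKM in the sensitive strain, which overlapped. The strain effect differed between stages for serp (1.94 ± 0.62, adjusted p 0.03609, limma interaction), a call lost in 10 of the 12 fits that each omitted 1 library, and for verm (2.62 ± 0.58, adjusted p 0.006695, limma interaction). The ratio of verm to serp within a library ranged over 1.6 to 1.92 in resistant and 1.55 to 1.64 in sensitive adults, although their levels differed several-fold. It was 1.29 to 1.63 in resistant and 1.94 to 2.15 in sensitive larvae, without overlap. Cda4 and Cda5, further deacetylases, rose in resistant adults by 1.38 ± 0.35 and 1.51 ± 0.40 (adjusted p 0.02328 and 0.02592, limma). Each of these 2 calls was lost in 4 of the 6 fits that omitted 1 library.

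The chitin-binding proteins held the widest range of levels and the sharpest contrast between stages. In adults, 3 of the 7 tested rose in the resistant strain, against 10.6% of all genes. None fell in both fits (limma, 0 lower at an unadjusted p under 0.05). obst-A (X:20239855-20243209), which builds the chitin scaffold of new cuticle, was at 128.83, 91.98 and 188.68 FPKM in resistant adults, against 49.19, 9.64 and 15.86 FPKM in sensitive adults. obst-B, a related chitin-binding protein, was at 71.48, 45.65 and 86.73 FPKM in resistant adults, against 22.33, 18.25 and 20.07 FPKM in sensitive adults. Neither overlapped, and the sensitive libraries lay much closer together for obst-B than for obst-A. obst-A rose by 2.66 ± 0.52 (adjusted p 0.0107, limma), the largest adult difference of a called member, and obst-B by 1.66 ± 0.26 (adjusted p 0.005825, limma). In larvae neither was called in both fits, and the strain effect differed between stages by 2.99 ± 0.67 for obst-A (adjusted p 0.008176, limma interaction).

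Peritrophin-A, a chitin-binding protein whose gene lies 1437 bases from obst-A, was the 1 member called in opposite directions at the 2 stages. It was at 35.01, 20.82 and 43.05 FPKM in resistant adults, against 11.13, 6.47 and 9.24 FPKM in sensitive adults. Its larval levels were 43.92, 40.87 and 34.36 FPKM in the resistant and 72.17, 74.91 and 96.61 FPKM in the sensitive strain. No group overlapped its counterpart: Peritrophin-A rose by 1.74 ± 0.31 in resistant adults and fell by 1.01 ± 0.18 in resistant larvae, both on the log2 scale (adjusted p 0.007692 and 0.00169, limma). The 2 effects differed by 2.75 ± 0.36 (adjusted p 0.0002286, limma interaction). Gasp, a tracheal and cuticular protein of the same family, was higher in the resistant strain without scaling at both stages (1.70 ± 0.44 in adults and 0.68 ± 0.24 in larvae) and passed at neither with it.

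In larvae, 5 of the 12 binding proteins fell in the resistant strain, against 9.82% of all genes. obst-E, which shapes the larval cuticle ahead of pupariation, was at 51.92, 61.38 and 69.15 FPKM in resistant larvae, against 331.78, 304.81 and 420.16 FPKM in sensitive larvae, far from overlapping. On the log2 scale it fell by 2.51 ± 0.20 (adjusted p 3.843e-05, limma). In adults obst-E was at 39.03, 28.98 and 40.66 FPKM in the resistant and 26.5, 34.5 and 34.19 FPKM in the sensitive strain, which overlapped, and the strain effects at the 2 stages differed by 2.69 ± 0.29 (adjusted p 3.59e-05, limma interaction).

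Peritrophin-15a and Peritrophin-15b, neighbouring genes of the midgut lining 724 bases apart on 2L, were the most abundant members in larvae and fell together. Peritrophin-15a was at 748.72, 938.11 and 1605.2 FPKM in resistant larvae, against 2451.77, 3872.93 and 4614.65 FPKM in sensitive larvae. Peritrophin-15b was at 206.79, 243.51 and 394.24 FPKM in resistant larvae, against 510.01, 916.8 and 965.24 FPKM in sensitive larvae. The third resistant library was the highest of its strain for both, without reaching the sensitive range. Their log2 fold changes were -1.76 ± 0.33 and -1.50 ± 0.31 (adjusted p 0.001982 and 0.003167, limma), and in adults neither gene passed. Peritrophin-15a alone set much of the summed level of all 38 members, which averaged 3008.11 ± 441.18 FPKM in the resistant larvae and 6789.58 ± 1498.52 FPKM in the sensitive larvae (SD, n = 3 each). In adults that sum was 1806.99 ± 412.51 FPKM in the resistant and 1557.16 ± 70.03 FPKM in the sensitive strain.

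Among the chitinase-like Idgf genes in adults, 4 of 6 were lower in the resistant strain, against 3.75% of all genes. None was higher (limma, 6 lower and 0 higher at an unadjusted p under 0.05). All 4 calls depended on single libraries to some degree. In the 6 fits that each omitted 1 library, the call was lost in 1 for Idgf6, 2 for Idgf1, 3 for Idgf2 and 5 for Idgf5. Idgf6 was at 138.41, 159.37 and 152.28 FPKM in resistant adults, against 303.31, 319.24 and 309.77 FPKM in sensitive adults. In larvae it was at 178.45, 211.88 and 156.11 FPKM in the resistant and 306.88, 427.32 and 463.98 FPKM in the sensitive strain. Neither stage overlapped, and Idgf6 fell by 1.05 ± 0.20 in adults (adjusted p 0.009068, limma) and by 1.12 ± 0.22 in larvae (adjusted p 0.002281, limma), both on the log2 scale.

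Idgf5 behaved likewise at a lower level. It was at 6.61, 5.94 and 15.33 FPKM in resistant adults, against 18.18, 27.5 and 22.6 FPKM in sensitive adults, and at 14.44, 15.07 and 16.9 FPKM in resistant larvae, against 26.45, 32.9 and 38.71 FPKM in sensitive larvae. The strains did not overlap at either stage, although the third resistant adult library came near the sensitive range. Idgf5 fell by 1.301 ± 0.34 in adults (adjusted p 0.02522, limma) and by 1.02 ± 0.18 in larvae (adjusted p 0.001428, limma) on the log2 scale. The adult call was lost without any 1 of 5 libraries.

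Idgf1, Idgf2 and Idgf3 form a run on 2L (2L:16445278-16455194), and the strain effect of Idgf1 differed between the stages in both fits, that of Idgf2 without scaling only. Idgf1 was at 18.74, 20.59 and 33.26 FPKM in resistant adults, against 61.09, 55.13 and 46.91 FPKM in sensitive adults, and on the log2 scale it fell by 1.17 ± 0.26 (adjusted p 0.01404, limma). Its larval levels were 42.16, 36.74 and 33.5 FPKM in the resistant and 17.63, 24.04 and 24.38 FPKM in the sensitive strain, a difference of 0.75 ± 0.18 that passed without scaling and not with it (adjusted p 0.005781 and 0.461, limma). In FPKM the order of the strains differed between stages, without overlap in either, but the larval difference did not pass after scaling. The difference between the stage effects, -1.92 ± 0.32, passed in both fits (adjusted p 0.001037 without scaling, limma interaction).

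Idgf2 was at 69.52, 69.19 and 87.71 FPKM in resistant adults, against 130.47, 156.77 and 155.28 FPKM in sensitive adults, and on the log2 scale it fell by 0.96 ± 0.21 (adjusted p 0.01294, limma). In larvae it was at 58.74, 64.79 and 60.7 FPKM in the resistant and 40.69, 54.65 and 59.67 FPKM in the sensitive strain, with an overlap. Idgf3 averaged 92.04 ± 12.60 FPKM in resistant and 135.62 ± 20.05 FPKM in sensitive adults, and in larvae 109.41 ± 28.74 FPKM in the resistant and 105.47 ± 16.65 FPKM in the sensitive strain. Idgf4, the most abundant Idgf gene in adults, averaged 254.53 ± 27.35 FPKM in resistant and 352.36 ± 30.03 FPKM in sensitive adults, and in larvae 208.02 ± 61.79 FPKM in the resistant and 288.78 ± 43.65 FPKM in the sensitive strain (SD, n = 3 each). Neither Idgf3 nor Idgf4 was called between the strains in both fits. Idgf1 and Idgf2 overlap CG5888, and Idgf6 overlaps Pgant9, on the opposite strand. Of the other members, Cht2, rtv, obst-F and obst-J also each overlap a gene on the opposite strand.

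**Figure D4:**
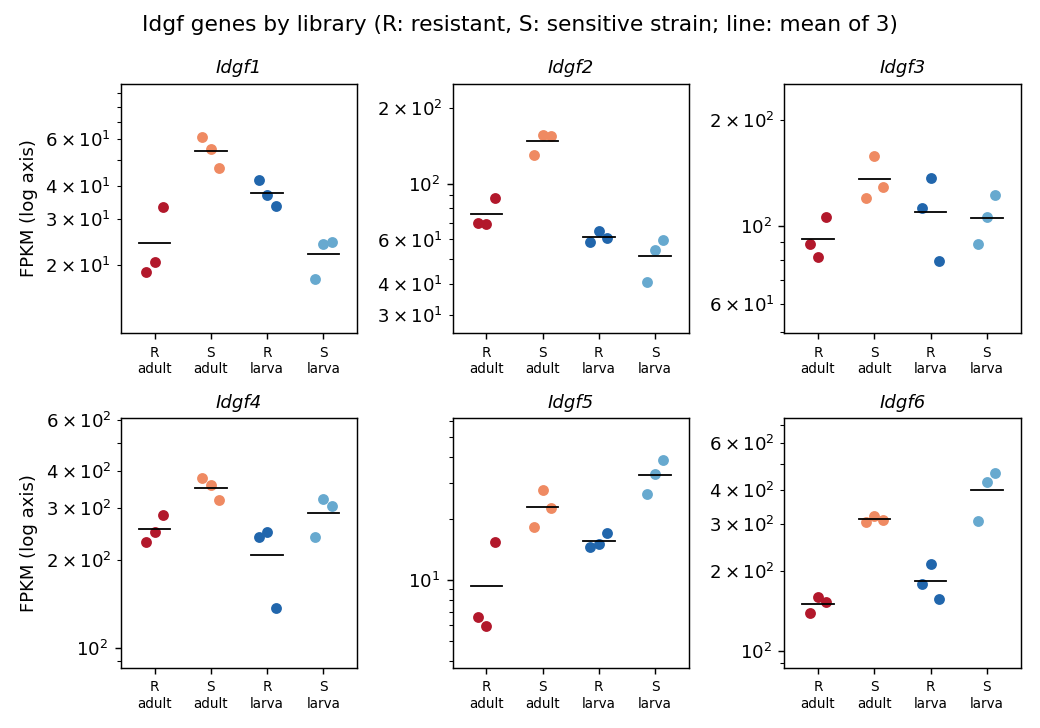
FPKM on a log axis of the 6 Idgf genes in every library, by group, with the mean of 3 as a line. Resistant adults lie below sensitive adults for Idgf1, Idgf2, Idgf5 and Idgf6, which were called in both fits, whereas Idgf3 and Idgf4 were called in neither adult fit. For Idgf1 the resistant larvae lie above the sensitive larvae, a difference that passed without scaling only.

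The strain effect was tested for a difference between stages in all 38 members. It was higher in adults than in larvae in both fits in 13 (kkv, mmy, rtv, Cht9, serp, verm, Cda4, obst-A, obst-B, obst-E, Peritrophin-A, Peritrophin-15a and Peritrophin-15b) and lower in 2 (Cht10 and Idgf1). Over all 12270 genes tested, these shares were 9.61% and 7.80%. Without scaling 16 members passed in either direction, against 29.7% of all genes. Of the 15 called in both fits, 10 kept the unscaled call whichever of the 12 libraries was left out. The call was lost in 7 of 12 such fits for rtv, 9 for Cht9, 10 for serp, 10 for Cda4 and 6 for Peritrophin-15b. For Cht9, obst-E and the Peritrophin-15 pair, the higher value reflects a fall in resistant larvae that was smaller or not called in adults. knk, Cht4, Idgf5 and Idgf6, called in 1 direction at both stages, had differences between the stage effects of -0.23 ± 0.30, -0.10 ± 0.66, -0.28 ± 0.40 and 0.07 ± 0.28 (SE), none of which passed.

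Stage itself set the levels of most binding proteins. In adults against larvae, 5 members were higher and 14 lower in the resistant strain, and 2 were higher and 21 lower in the sensitive strain, in both fits. Of all genes, 31.2% were higher and 19.4% lower in the resistant strain, and 26.1% were higher and 12.4% lower in the sensitive strain. Cda9, a predicted chitin deacetylase, and the chitin-binding genes obst-F to obst-J were larval: they were at 8.3 to 81.16 FPKM in every larval library and at 0 to 0.81 FPKM in every adult one. That pattern, at least 5 FPKM in all 6 larval and under 1 FPKM in all 6 adult libraries, held for 6 of 38 members (15.8%) and for 90 of 14001 genes (0.64%), and its limits were set after these values were known. Cht8 was the reverse, at 22.74 to 38 FPKM in adults and 0.06 to 0.8 FPKM in larvae, a pattern shared by 307 genes (2.19%). In both strains Cht8 passed: it rose in adults by 4.46 ± 0.24 in the resistant and by 4.66 ± 0.24 in the sensitive strain (adjusted p 6.029e-10 and 3.947e-10, limma).

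For other members the stage effect differed by strain. Resistant adults and larvae had overlapping kkv levels, while sensitive adults were 1.57 ± 0.31 below sensitive larvae on the log2 scale (adjusted p 0.0004678, limma). Peritrophin-A gave the same picture, with -0.31 ± 0.26 in the resistant strain (adjusted p 0.3129, limma) and -3.06 ± 0.26 in the sensitive strain (adjusted p 1.134e-07, limma). Cht10, in contrast, had log2 fold changes of adults over larvae of -5.705 ± 0.27 in the resistant and -3.21 ± 0.27 in the sensitive strain. Its adult levels were low and overlapped between the strains, at 0.41 to 0.55 FPKM and 0.36 to 1.04 FPKM. The gap between the 2 stage effects therefore largely restates the larval strain difference of 2.34 ± 0.28. These strain and stage comparisons share libraries, so they are not separate pieces of evidence.

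**Figure D5:**
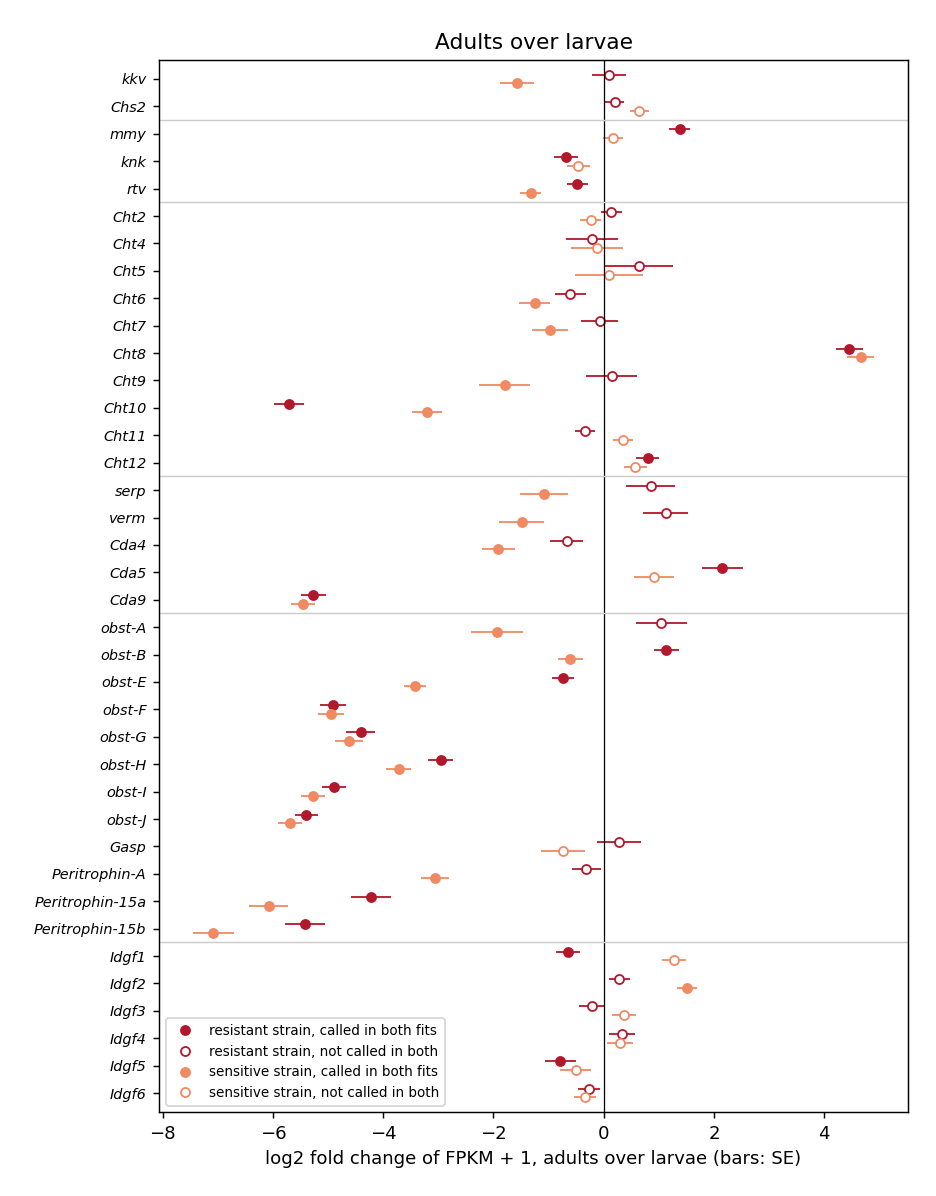
Log2 fold change of FPKM + 1 for adults over larvae, with its standard error, in the resistant (red) and sensitive (orange) strain, and filled where the gene was called without and with scaling. Cda9 and obst-F to obst-J lie between -2.95 and -5.69 in both strains, and Cht8 lies above 4.4 in both.

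Genes of the same pathway outside the 38 were followed as 4 lists. For comparison, 10.6% of all genes tested were higher and 3.75% lower in both fits in resistant adults. The shares in resistant larvae were 11.0% and 9.82%. Of 6 genes of the hexosamine route, which supplies the chitin precursor, Gfat1, its rate-limiting enzyme, rose in resistant adults (1.01 ± 0.25, adjusted p 0.01972, limma) and Pgi fell in resistant larvae (-1.23 ± 0.18, adjusted p 0.0008173, limma). Of 3 hexosaminidases none was called between the strains in both fits (limma; 0 in adults and 1 in larvae at an unadjusted p under 0.05). Of 7 genes of chitin secretion and apical matrix, 3 of the 5 tested rose in resistant adults, with exp at 1.88 ± 0.28 and reb at 1.38 ± 0.23 the largest (adjusted p 0.004898 and 0.006406, limma). exp and reb encode proteins that act with Kkv in chitin deposition. exp was at 13.69, 8.17 and 14.79 FPKM in resistant adults, against 3.66, 2.0 and 2.07 FPKM in sensitive adults, without overlap. In larvae Blimp-1 and pio, 2 of the 6 tested, rose. Of 11 chitin-binding mucins, 7 were tested at each stage: Mur11Da fell in resistant adults, and in resistant larvae Mur89F rose and Mur18B fell.

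Single libraries and markers of other tissues moved with these results. Of the 13 members higher in resistant adults without scaling, the first sensitive library was the highest of its group in 12 and the third resistant library in 13; over all genes tested these 2 libraries were highest of their groups in 49.0% and 29.1%. Summed over those 13 members, FPKM was 781.7, 535.71 and 1209.43 in the resistant adults and 351.8, 117.21 and 140.32 in the sensitive adults. Without the first sensitive library 13 members were higher and 5 lower, and without the third resistant one 9 were higher and 7 lower. Without the first resistant library the counts fell to 6 and 2, without the second sensitive one to 8 and 3, and without the third sensitive one to 6 and 4. The loss was not particular to the members: all genes called fell from 2309 to 497, 1225 and 951 in the same fits. kkv, knk, Cht4, Cht9, verm, obst-B and Peritrophin-A, 7 of the 17 adult calls in both fits, kept their unscaled call whichever library was left out, as did 10 of the 13 larval calls (not mmy, Cht4 and obst-H).

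In adults the summed FPKM of 6 epidermal and tracheal markers was 46.98 to 69.09 in the resistant and 25.65 to 43.56 in the sensitive strain, and 1 of the 4 tested rose. Most of that sum was pio, at 48.24, 38.05 and 54.97 FPKM in resistant and 30.07, 21.43 and 19.18 FPKM in sensitive adults. The others, grh, uif, crb, sha and dpy, overlapped, with crb at 3.09, 3.69 and 3.51 FPKM in resistant and 7.01, 3.73 and 3.3 FPKM in sensitive adults. For 7 cuticle tanning genes the sums were 199.64 to 357.93 and 102.14 to 118.22 in resistant and sensitive adults, with 2 of 7 higher in both fits. Fat body markers summed to 264.23 to 407.38 in the resistant and 103.89 to 122.28 in the sensitive strain (5 of 7 higher, against 10.6% of all genes). Most of these genes were far higher in larvae, where the sums were 24367.32 to 34749.78 and 34193.78 to 47824.29 in the resistant and sensitive strain. apolpp overlapped between the adult strains, at 25.24, 18.14 and 29.21 FPKM in resistant and 31.73, 26.34 and 24.45 FPKM in sensitive adults. The sums therefore do not measure the amount of adult fat body. The sum was lower in resistant adults for midgut proteases, at 3813.42 to 8366.32 against 10510.06 to 13642.15 in sensitive adults (2 of 6 lower). The hemocyte sum was also lower, at 21.15 to 36.82 against 63.7 to 67.83 (3 of the 6 tested lower). PPO1 and PPO2 made up most of it in sensitive adults. NimC1 went the other way, at 2.83, 2.22 and 4.05 FPKM in resistant and 1.91, 1.8 and 2.02 FPKM in sensitive adults. No hemocyte marker was higher at an unadjusted p under 0.05 (limma). Of the 7 male genes 4 were higher, and of the 5 female genes 2 were lower. Across all genes tested in adults, 10.6% were higher and 3.75% lower in both fits. Of 14 moult-timing genes 9 were tested and none was called in both fits (limma; 2 higher at an unadjusted p under 0.05), with sums of 57.92 to 66.05 in resistant and 47.06 to 91.1 in sensitive adults. The part of these markers in the results was not tested, and in bulk samples fewer cells of a type and less RNA per cell cannot be told apart.

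In larvae the moult-timing genes, which respond to the moulting hormone ecdysone, summed to 421.85 to 624.18 FPKM in the resistant and 119.39 to 181.46 FPKM in the sensitive strain, with 6 of the 12 tested higher in both fits. Tanning genes summed to 272.28 to 540.97 and 100.82 to 147.08 in resistant and sensitive larvae (2 of the 6 tested higher), and epidermal and tracheal markers to 58.34 to 100.47 and 32.35 to 38.96 (1 of the 5 tested higher). In every larval library pio made up most of the epidermal and tracheal sum. The hemocyte sum was lower, at 72.09 to 91.31 in resistant and 198.6 to 254.48 in sensitive larvae (3 of 8 lower). PPO1 and PPO2 made up most of the sensitive sum. Hml, eater, Pxn and Sr-CI overlapped between the strains. NimC1 went the other way, at 10.67, 8.05 and 4.82 FPKM in resistant and 2.85, 4.07 and 4.06 FPKM in sensitive larvae. Without scaling 1 of the 8 was higher, and with it 0. Of all genes tested in larvae, 11.0% were higher and 9.82% lower in both fits. Midgut proteases overlapped, at 13851.53 to 19006.7 in resistant and 5351.97 to 18591.88 in sensitive larvae (1 higher and 1 lower of 6), while 5 of 7 fat body genes were lower. The remaining fat body genes, Lsp2 and Fbp1, overlapped. Lsp2 was at 12095.69, 12925.49 and 7816.27 FPKM in resistant and 6803.21, 9528.8 and 8802.33 FPKM in sensitive larvae. Fbp1 was at 6347.74, 5733.76 and 2584.91 FPKM in resistant and 3435.79, 4334.43 and 2761.62 FPKM in sensitive larvae. Glue genes were not called in both fits at either stage (limma; 1 higher at an unadjusted p under 0.05 in each). Of the female genes, summing to 4.73 to 7.18 in resistant and 111.5 to 155.23 in sensitive larvae, both that were tested were lower. The list of epidermal and tracheal markers shares pio and dpy with that of chitin secretion, and the moult-timing list shares Blimp-1 with it. The part of these markers in the larval differences was not tested, and an age difference within the instar cannot be told apart from the strain.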

How the data were processed

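Whole-body total RNA (TRIzol) was made into BGISEQ-500 libraries, per the labels' protocols. Tools named per the submitters' processing notes, without settings, are STAR, FastQC 0.11.9, edgeR 3.12 and RSEM 1.3.3, with the build dm6. The authors deposited 1 table of FPKM for 14001 genes in 12 libraries. Depth was estimated from the steps between low values, of which 92.73 to 97.12% lay within 0.2 of a whole read. Depth and a length offset were chosen to make that share largest. The 40% that chance would give holds for an unfitted depth, so the gap is not a test of the estimate.

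Libraries were grouped by their labels. Genes with at least 3 libraries of a fit at 1 FPKM or more were tested with limma 3.58.1 (mean-variance trend, robust empirical Bayes, two-sided) in R 4.3.3 on log2(FPKM + 1), with Benjamini-Hochberg adjustment over all genes at 0.05. Strain effects used the 6 libraries of a stage, and stage effects and interactions all 12. The deposited FPKM carry no counts, so the count test planned for counts was not used. Current symbols came from FlyBase identifiers, of which 13776 matched, and coordinates (dm6) from Ensembl's annotation. The fit was tested on simulated data.

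The 38 genes, the lists and the marker lists were chosen with earlier results of these data known. Values of every library are given for genes called in both fits, up to 8 per stage by size of the fold change, and for kkv, Chs2, serp, verm, Cht5 and the Idgf genes; knk in adults, mmy and some repeats were added after their values were seen. Alternatives were median-of-ratios and upper-quartile scaling, a pseudocount of 0.1, no filter, a mean of at least 5 FPKM, no robust fit, the other set of libraries, a replicate block, and each library left out.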

Additional observations from a re-analysis of the deposited data

Results flagged for a closer look

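The strain effect differed between adults and larvae, by an interaction test in limma over all genes with Benjamini-Hochberg adjustment, in 16 of the 38 members, against 29.7% of all genes tested. The differences below are the effect (resistant over sensitive) in adults minus that in larvae, on the log2(FPKM + 1) scale. Among the synthesis and assembly genes it was 1.67 for kkv, 1.203 for mmy and 0.85 for rtv. Among chitinases it was 1.95 for Cht9 and -2.50 for Cht10, where Cht10 was under 1.1 FPKM in every adult library. Deacetylases gave 1.94 for serp, 2.62 for verm and 1.24 for Cda4, where serp and Cda4 each lost the call in 10 of the 12 fits that omitted 1 library and verm in 0. Such losses numbered 7 for rtv, 9 for Cht9 and 6 for Peritrophin-15b. Binding proteins gave 2.99 for obst-A, 1.74 for obst-B, 2.69 for obst-E, 2.75 for Peritrophin-A, 1.86 for Peritrophin-15a and 1.66 for Peritrophin-15b. The Idgf genes gave -1.92 for Idgf1 and -1.22 for Idgf2, of which Idgf2 did not pass after scaling (adjusted p 0.0932, limma).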

How the results depend on the processing

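The count of larval genes called, 6484 of 11055, was 3342 after median-of-ratios and 4068 after upper-quartile scaling. With 1 library left out, the members called in adults ranged from 8 to 19 (19 with all), all genes called in adults from 497 to 2282 (2309 with all) and all genes with a strain effect differing between stages from 2117 to 4730 (3640 with all). Between sensitive adults and larvae, 2 values changed sign where at least 1 of the fits passed: Cht12 was -0.008 after median-of-ratios scaling (0.57 without) and mmy was -0.51 after upper-quartile scaling (0.17 without), and the cause was not tested. The replicate number did not pair the libraries: deviations of same-numbered libraries correlated at -0.202, 0.055 and -0.066 in adults and -0.102, -0.188 and 0.226 in larvae. With the replicate block, 20 members were called between strains in adults, 16 in larvae, 20 between stages in the resistant and 27 in the sensitive strain, and 14 in the interaction; 2438, 6102, 6773, 7591 and 3054 of all genes were. With 3 libraries a group and values to 2 decimals, precision for members near 1 FPKM is limited.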
